A study of Mus musculus with 6 samples.

Results

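The 56 genes described here encode structural proteins of the extracellular matrix and basement membrane and the enzymes that modify, crosslink or degrade them. They were chosen by name, as all probes whose platform annotation carries one of 56 listed symbols. A named probe was found for 40 of the 56 genes, with 64 probes in all, and 39 genes passed the detection filter among 9908 named genes tested in the series. Adamts1, a secreted metalloprotease gene, had a named probe that was detected on 2 of 3 posterior arrays and on 0 anterior arrays, and was not tested. The other 16 genes are not analysed here because no probe carries their symbol: Lamb1, Col1a1, Col1a2, Col3a1, Col5a2, Col12a1, Lox, Loxl2, Fbn1, Fbn2, Efemp2, Vcan, Thbs1, Mgp, Postn and Serpine2. Of the 5 listed fibrillar collagen genes only Col5a1 was therefore measured.

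The samples were 3 RNA samples of a posterior and 3 of an anterior mouse limb mesenchyme line, each read on 1 bead array with 1 colour. Both lines were immortalized, came from limbs of E10.5 embryos, staged by embryonic day, and carried a temperature-sensitive SV40 T antigen, the viral oncoprotein that drives proliferation. Each position is represented by 1 line, so a difference between positions and a difference between these lines cannot be told apart. The labels do not say whether the samples of a line were separate cultures, so p-values measure only how these samples varied, and that spread may be technical. Strain, culture temperature and passage are not given in the sources used here.

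All levels below are background-corrected, quantile-normalized log2 intensities, given for replicates 1, 2 and 3 of a group in that order. A gene is represented by its brightest tested probe, and levels are compared between arrays for 1 probe, never between probes. Differences are posterior minus anterior, with the standard error (SE) of the limma fit, and a gene was called where its Benjamini-Hochberg adjusted p over all tested probes was under 0.05. The posterior arrays detected 17784 to 18657 probes and the anterior arrays 16052 to 17705. Array levels correlated at 0.971 to 0.989 within a group and at 0.882 to 0.905 between groups, a description across probes that are not independent.

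The labelled cell type was only partly borne out by its markers in posterior, and in anterior the markers went largely against it. Of the 9 limb bud mesenchyme markers listed, 4 had a named probe, and all 4 (Twist1, Msx1, Tbx4 and Pdgfra) were higher in posterior. The mean level of these 4 was 6.38 to 7.10 on the posterior arrays and 4.93 to 5.09 on the anterior arrays. The anterior mean lay near the lowest detected signals of those arrays (4.76 to 4.91). Twist1 and Msx1 were detected on all 3 anterior arrays and Tbx4 on 1 of 3. Pdgfra was detected on 0 of 3 anterior arrays and entered the fit only through posterior. All 9 pluripotent stem cell markers were lower in posterior. Their mean level was 7.13 to 7.41 on the posterior arrays and 10.46 to 10.55 on the anterior arrays. Each of the 9 was detected on all 3 anterior arrays. Tdgf1 and Fgf4 were detected on no posterior array and entered the fit only through anterior, which favours a lower level in posterior. All 7 pluripotency markers detected on all 6 arrays were lower. Of 7 tested markers of primitive and parietal endoderm, cell types that secrete abundant basement membrane, 6 were higher and 0 lower, and their mean level was 6.47 to 7.10 in posterior against 4.86 to 5.02 in anterior. In anterior, 4 of these 7 were detected on no array, Gata6 and Sox17 among them. These 4 entered the fit only through posterior, which favours a higher level there. Of the 2 endoderm markers detected on all 6 arrays 1 was higher and 0 lower. Over all 9908 tested genes 25.9% were higher and 21.5% lower. Smooth muscle markers had a mean level of 7.34 to 8.56 in posterior and 4.93 to 5.18 in anterior over 4 tested genes. Of these 4, Acta2, Tagln and Myl9 were higher and Des did not pass. Tagln and Myl9 were detected on no anterior array and also entered the fit only through posterior. The 4 tested endothelial markers had no common direction: Flt1 was higher, Pecam1 and Vwf were lower and Tek did not pass. Their mean level was 5.41 to 5.81 in posterior and 6.16 to 6.45 in anterior. Flt1 was detected on no anterior array and Vwf on no posterior array, so each entered the fit only through its brighter group. Of the 2 tested fibroblast markers Pdgfrb was higher and Thy1 lower, with a mean level of 4.85 to 5.09 in posterior and 5.55 to 5.89 in anterior. Pdgfrb was detected on no anterior array and entered the fit only through posterior. The part of these marker differences in the matrix results was not tested, and in such bulk samples fewer cells of a type and less RNA per cell cannot be told apart.

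The extracellular matrix is the secreted network that surrounds cells. Basement membranes are its sheet-like form, in which a laminin layer and a network of type IV collagen are joined by nidogens and by proteoglycans such as perlecan and agrin. Collagen chains are hydroxylated and folded in the endoplasmic reticulum, secreted, trimmed and crosslinked, and the finished matrix is remodelled by metalloproteases and plasminogen activators under the control of their inhibitors. In the early limb bud a basement membrane separates ectoderm from mesenchyme, and mesenchymal cells lie in a loose matrix before cartilage forms.

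Most tested matrix genes were brighter in posterior. Of the 39 tested members 24 were higher, 6 were lower and 9 did not pass, whereas 25.9% of all 9908 tested genes were higher and 21.5% lower. Over all tested genes 47.4% were called (45.2% of those detected on all 6 arrays), so a call alone does not set a gene apart in this comparison. The median difference of the 39 members was 1.06 on the log2 scale, against 0.03 over all tested genes. Of the members 5 (Col6a1, Col6a2, Tnc, Dcn and Plau) had no anterior array with detectable signal and entered the fit only through posterior, which favours a higher level there, and their count supports nothing by itself. Among the 29 members detected on all 6 arrays 16 were higher and 6 lower, with a median of 0.66. Over the 8041 genes detected on all 6 arrays 22.0% were higher and 23.1% lower, with a median of -0.03. At a size of 2-fold or more, 20 members were higher and 3 lower (11.7% and 7.83% of all tested genes). The 6 lower members were Nid1, Nid2, Fn1, Mmp11, Htra1 and Timp1. The levels of the posterior arrays all lay above those of the anterior arrays in 26 members and all below in 6 (31.4% and 26.9% of all tested genes).

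**Figure D1:**
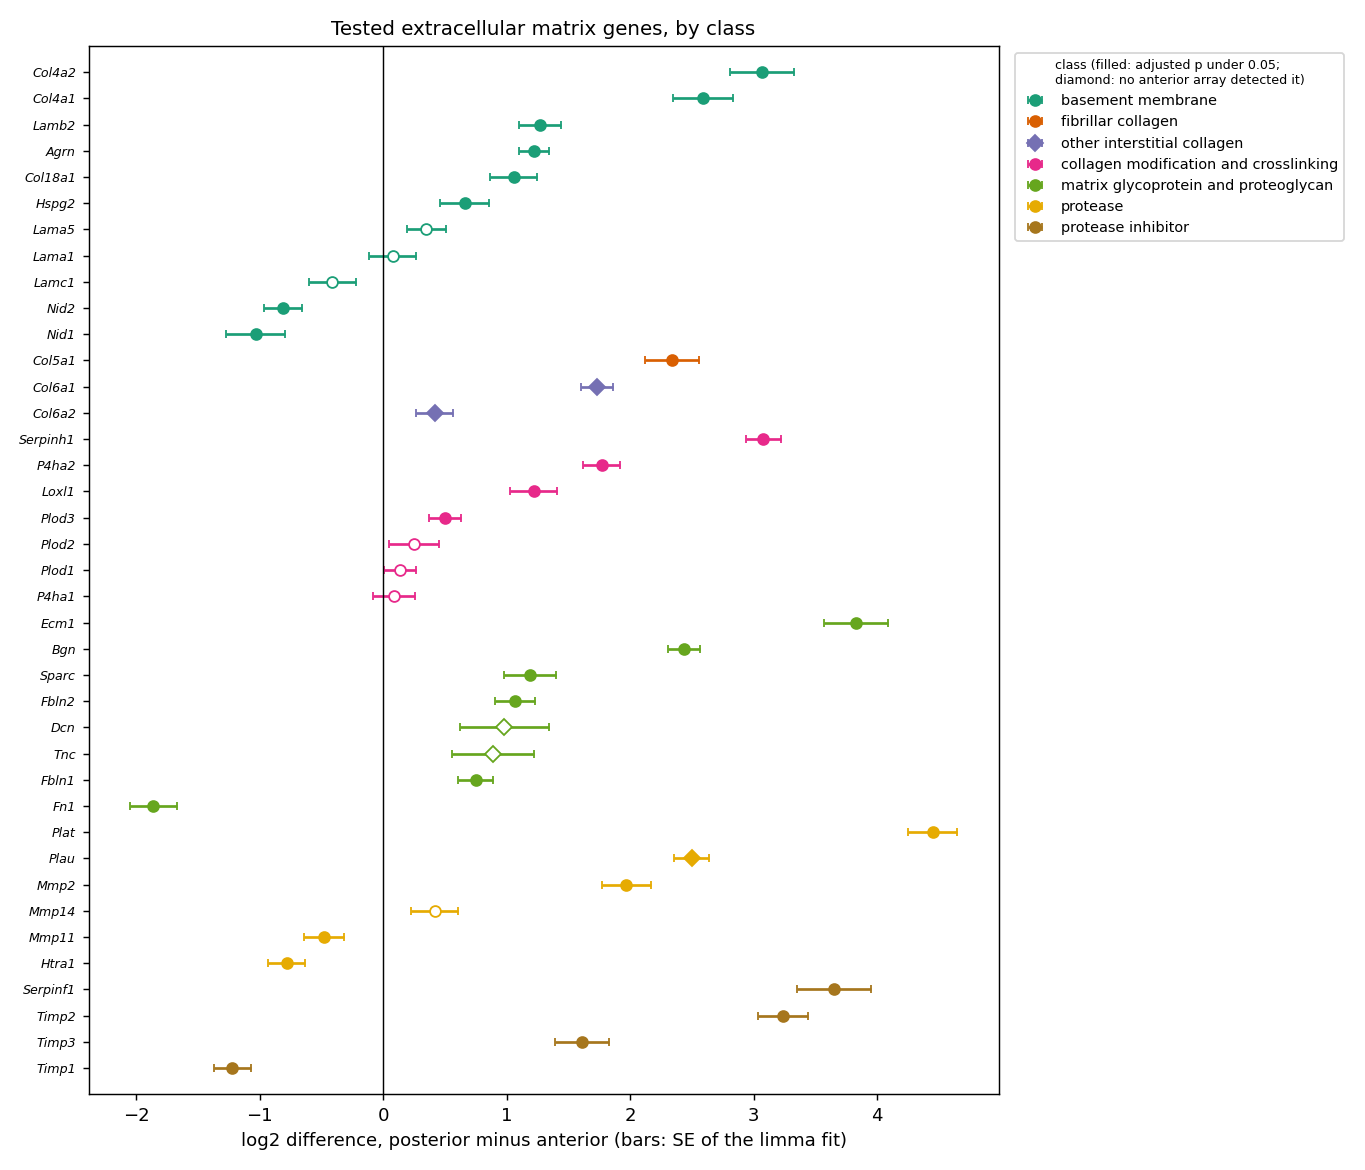
Log2 difference (posterior minus anterior, x axis) of the 39 tested matrix genes, sorted within their class on the y axis; points are limma estimates and bars their SE, filled points passed the adjusted p of 0.05, and diamonds mark genes that no anterior array detected. Plat had the largest positive difference (4.45) and Fn1 the largest negative one (-1.86), and every class with more than 2 tested genes held genes that passed and, except for the inhibitors, genes that did not.

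Posterior replicate 1 had the lowest of the 3 posterior levels in 29 of the 39 members (74.4%), against 39.2% of all tested genes. Replicate 2 was the highest in 21 members (53.8%), against 31.9% of all tested genes. The median SD of the members was 0.24 over the posterior and 0.17 over the anterior arrays, against 0.16 in posterior and 0.20 in anterior over all tested genes. The marker means moved between the same posterior arrays. Replicate 1 had the lowest mean of the limb mesenchyme (6.38), endoderm (6.47), smooth muscle (7.34) and endothelial markers (5.41). It had the highest mean of the pluripotency markers (7.41). For the fibroblast markers replicate 3 had the lowest mean (4.85). With any 1 posterior array left out, 19 to 21 of 34 tested members were higher and 5 lower, the 5 genes undetected in anterior no longer being tested. The part of these marker levels in the spread was not tested.

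The type IV collagen genes led the basement membrane genes, of which 6 of 11 were higher, 2 lower and 3 not past the threshold. The shares were 54.5% higher and 18.2% lower, against 25.9% and 21.5% of all tested genes. The median difference of the 11 was 0.66, and all 11 were detected on all 6 arrays. Col4a1, which encodes a chain of the most widespread type IV collagen trimer, had levels of 9.29, 10.0 and 10.34 in posterior, against 7.29, 7.28 and 7.29 in anterior. Col4a2, which encodes the partner chain of that trimer, had 8.90, 9.54 and 9.98 in posterior, against 6.58, 6.23 and 6.42 in anterior. Both genes were high on every posterior array, with no overlap, and posterior replicate 1 was the lowest for both. Col4a1 was 6.02-fold higher (log2 2.59, SE 0.24, adjusted p = 7.25e-05) and Col4a2 8.37-fold higher (log2 3.07, SE 0.26, adjusted p = 3.86e-05). In the deposited intensities before any normalization, Col4a1 read 823, 1042 and 1240 in posterior, against 164, 210 and 181 in anterior. Among the endoderm markers Gata6 had 8.03, 8.74 and 8.96 in posterior, against 4.60, 4.44 and 4.53 in anterior, and Sox17 had 5.78, 6.43 and 8.47 in posterior, against 4.43, 4.27 and 4.26 in anterior. Replicate 1 was the lowest and replicate 3 the highest posterior array for these markers and for Sox7 and Dab2. The other 3 of the 7 tested endoderm markers had another order, with replicate 3 lowest for Foxq1 and replicate 2 highest for Fst and Amn. The part of these markers in the collagen result was not tested.

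Col4a1 and Col4a2 lie head to head on mouse chromosome 8, and the windows around their starts are shown because both genes moved together. In the RefSeq annotation of GRCm38.p6 the starts lie 21 bases apart, at 11312826 for Col4a1 and 11312805 for Col4a2. Each window holds 250 bases before and 50 from the start, read 5′ to 3′ on the gene's own strand, and the windows share 78 bases. Col4a1 is chr8:11312777-11313076, minus strand, and Col4a2 is chr8:11312555-11312854, plus strand. Capitals mark matches on either strand to any of 4 motifs, the GC box with the letters GGGCGG, the CCAAT box with its own letters, the TATA box with the letters TATAAA and the AP-1 site with the letters TGANTCA. No match of 1 motif was left out for overlapping another.
Col4a1: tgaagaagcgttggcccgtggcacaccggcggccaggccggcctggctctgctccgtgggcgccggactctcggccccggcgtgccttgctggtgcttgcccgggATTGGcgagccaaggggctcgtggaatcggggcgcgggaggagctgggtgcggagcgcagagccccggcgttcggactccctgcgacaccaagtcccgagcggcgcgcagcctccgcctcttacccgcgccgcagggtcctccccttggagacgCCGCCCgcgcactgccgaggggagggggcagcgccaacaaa
Col4a2: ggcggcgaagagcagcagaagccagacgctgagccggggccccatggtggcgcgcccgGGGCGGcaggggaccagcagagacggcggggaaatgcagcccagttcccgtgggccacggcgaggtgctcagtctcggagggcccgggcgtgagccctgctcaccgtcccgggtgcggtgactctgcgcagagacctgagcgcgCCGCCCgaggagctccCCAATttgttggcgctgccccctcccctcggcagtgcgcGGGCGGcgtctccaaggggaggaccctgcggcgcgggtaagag
The Col4a1 window holds 1 GC box and 1 CCAAT match and the Col4a2 window 3 GC boxes and 1 CCAAT match. Both hold 0 TATA box and 0 AP-1 matches. The GC box of the Col4a1 window lies in the shared bases and is the same site as the last GC box of the Col4a2 window. RefSeq windows were found for 38 of the 56 listed genes, 46 windows in all. Some genes have several windows, which overlap for Efemp2, Tnc and Fbln1, and listed genes without a named probe are included. The shares below therefore count windows and do not describe the measured genes alone. A GC box was present in 36 of these (78.3%), against 35.7% of all 32851 windows in the table, CCAAT in 14 (30.4%, against 37.4%), a TATA box in 8 (17.4%, against 13.6%) and an AP-1 site in 2 (4.35%, against 7.81%). Such a match is a description of the letters and does not show a bound site.

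The proteoglycan-type components of the basement membrane were also higher. Agrn, which encodes the heparan sulfate proteoglycan agrin, had 12.66, 12.73 and 12.76 in posterior, against 11.46, 11.52 and 11.52 in anterior. The arrays of each group lay close together, and agrin was 2.33-fold higher (log2 1.22, SE 0.12, adjusted p = 0.000108). Col18a1, the source of the angiogenesis inhibitor endostatin, had 12.62, 12.87 and 13.10 in posterior, against 11.52, 11.80 and 12.10 in anterior, and was 2.08-fold higher (adjusted p = 0.00257). Another Col18a1 probe was 1.57-fold higher (adjusted p = 0.0163), and its dimmest probe had overlapping groups and did not pass (1.43-fold, adjusted p = 0.141). Hspg2, which encodes perlecan, had 10.04, 10.55 and 10.85 in posterior, against 9.78, 9.77 and 9.89 in anterior, a smaller difference of 1.58-fold (adjusted p = 0.0287). The call of Hspg2 was lost without posterior replicate 2 (adjusted p = 0.0966) or 3 (0.0998) and without anterior replicate 1 (0.0838) or 2 (0.0612).

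Laminin genes, by contrast, did not move as a group. Lamb2, which encodes a beta chain, had 8.03, 8.51 and 8.04 in posterior, against 6.79, 7.03 and 6.95 in anterior, with no overlap, and was 2.41-fold higher (log2 1.27, SE 0.17, adjusted p = 0.00049). Lama1, the alpha chain of the early embryonic laminin, had 8.07, 8.68 and 8.49 in posterior, against 8.12, 8.39 and 8.48 in anterior. These levels overlapped, and the difference of 0.08 (SE 0.19) did not pass (adjusted p = 0.76). Lama5, an alpha chain common in later epithelial basement membranes, had 8.74, 9.10 and 9.08 in posterior, against 8.70, 8.76 and 8.42 in anterior, a difference of 0.35 (SE 0.16, adjusted p = 0.118). Lamc1, the gamma chain shared by most laminin trimers, had 9.55, 9.71 and 9.78 in posterior, against 9.69, 10.41 and 10.18 in anterior, a difference of -0.41 (SE 0.19, adjusted p = 0.123). Lamc1 passed as lower without anterior replicate 1 (log2 -0.61, adjusted p = 0.0264) and with the mean of its probes (log2 -0.59, adjusted p = 0.0208). A p-value that misses the threshold does not show that these laminin chains were equal in the lines.

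The nidogens, which bridge laminin and type IV collagen, went the other way from the collagen genes. Nid1 had 6.76, 7.34 and 6.63 in posterior, against 7.87, 8.34 and 7.61 in anterior. Nid2 had 9.81, 9.76 and 9.72 in posterior, against 10.36, 10.83 and 10.53 in anterior. Every posterior array lay below every anterior array for both genes. Nid1 was 2.04-fold lower (log2 -1.03, SE 0.24, adjusted p = 0.00874) and Nid2 1.75-fold lower (log2 -0.81, SE 0.15, adjusted p = 0.00326). With arrays scaled to a common median in place of quantile normalization, which moved the median difference of all genes to 0.20 from 0.03, Nid1 no longer passed (log2 -0.76, adjusted p = 0.0829).

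**Figure D2:**
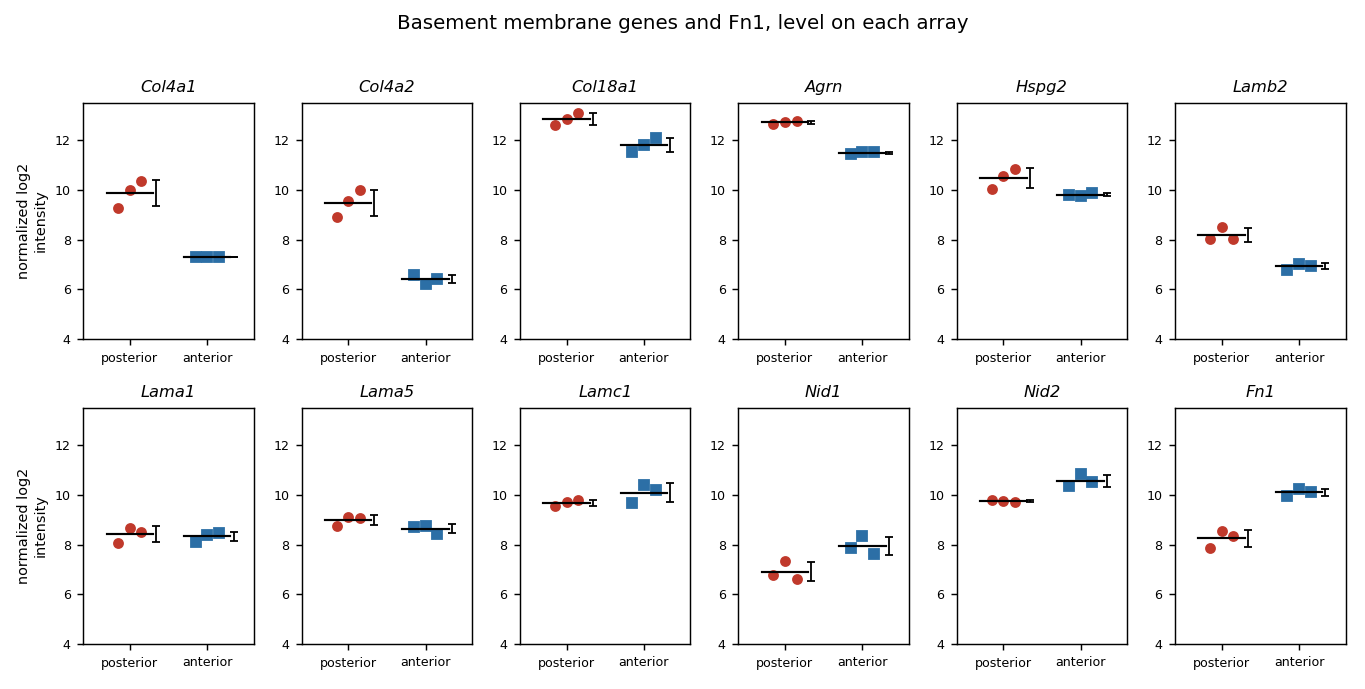
Level of each basement membrane gene and of Fn1 on every array (y axis, normalized log2 intensity; circles, 3 posterior arrays; squares, 3 anterior arrays), with horizontal lines at the group means and error bars of 1 SD. Col4a1 and Col4a2 were high and Nid1, Nid2 and Fn1 low on every posterior array, while the posterior and anterior levels of Lama1, Lama5 and Lamc1 overlapped.

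The 3 measured members among the fibrillar and type VI collagen genes, Col5a1, Col6a1 and Col6a2, were higher. Col5a1, which encodes a chain of the collagen that initiates fibrils, had 8.23, 9.16 and 8.61 in posterior, against 6.33 on each of the 3 anterior arrays. It was 5.06-fold higher (log2 2.34, SE 0.22, adjusted p = 7.64e-05), but as the only measured member of its class it cannot stand for the fibrillar collagens. Col6a1, a chain of the microfibrillar type VI collagen, had 5.85, 5.98 and 6.15 in posterior, against 4.25, 4.25 and 4.28 in anterior, where no array detected it. It was at least 2.24-fold higher (adjusted p = 2.62e-05), a bound set by the lowest detected signal of the anterior arrays. Col6a2, the partner chain, had 4.87, 5.07 and 5.10 in posterior, against 4.80, 4.46 and 4.52 in anterior, also undetected there, and was at least 1.14-fold higher (adjusted p = 0.0472). Col6a2 lay near the detection limit, and its call was lost without background correction (adjusted p = 0.0985), in the authors' values (0.268), with an offset of 50 (0.113), with median scaling (0.0707), with array weights (0.0639) and without anterior replicate 2 (0.114) or 3 (0.0942).

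Of the 7 tested genes of collagen modification and crosslinking 4 were higher (57.1%), 0 were lower and 3 did not pass, with a median difference of 0.50. Over all tested genes 25.9% were higher and 21.5% lower. Serpinh1, the collagen-specific chaperone of the endoplasmic reticulum, had 12.27, 12.32 and 12.34 in posterior, against 9.18, 9.08 and 9.43 in anterior. The posterior arrays differed by far less than the distance between the groups, and Serpinh1 was 8.47-fold higher (log2 3.08, SE 0.14, adjusted p = 2.02e-06). Its second probe was also higher (log2 2.40, adjusted p = 1.6e-05). P4ha2, an alpha subunit of the prolyl hydroxylase that stabilises the collagen helix, had 8.91, 8.53 and 8.66 in posterior, against 7.09, 6.86 and 6.83 in anterior, and was 3.42-fold higher (adjusted p = 4.66e-05). P4ha1, the alternative alpha subunit of that enzyme, had 5.86, 5.88 and 5.86 in posterior, against 6.06, 5.80 and 5.48 in anterior, and the difference of 0.09 (SE 0.17) did not pass (adjusted p = 0.707). A second P4ha1 probe, detected on no anterior array, was called higher (log2 0.68, adjusted p = 0.00935), so the probes of P4ha1 disagreed. The difference between P4ha2 and P4ha1 was not tested.

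Among the lysyl hydroxylases, which prepare collagen for crosslinking, only Plod3 was called. Plod3 had 9.91, 9.99 and 9.85 in posterior, against 9.51, 9.44 and 9.31 in anterior, 1.41-fold higher (adjusted p = 0.0149). Its call was lost with median scaling (adjusted p = 0.0707), without posterior replicate 2 (0.0677) and with the mean of its probes (log2 0.17, adjusted p = 0.349). Plod1 differed by 0.14 (SE 0.13, adjusted p = 0.446) and Plod2 by 0.25 (SE 0.20, adjusted p = 0.345), both with overlapping groups. Loxl1, a lysyl oxidase-like enzyme needed for elastic fibres in mice, had 7.16, 7.85 and 7.47 in posterior, against 6.16, 6.40 and 6.26 in anterior, and was 2.33-fold higher (adjusted p = 0.00112).

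The Serpinh1 window is given because this gene had the smallest adjusted p among the collagen-related members. It is chr7:99353190-99353489, minus strand, in GRCm38.p6 from RefSeq, marked as above.
Serpinh1: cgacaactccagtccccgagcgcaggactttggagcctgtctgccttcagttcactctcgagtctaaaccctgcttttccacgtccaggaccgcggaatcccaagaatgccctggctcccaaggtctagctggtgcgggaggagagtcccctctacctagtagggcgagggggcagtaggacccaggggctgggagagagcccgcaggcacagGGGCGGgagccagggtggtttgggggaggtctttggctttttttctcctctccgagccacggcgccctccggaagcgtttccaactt
It holds 1 GC box and no match to the other 3 motifs.

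Other genes of collagen processing, from a list of 21 of which 10 were tested, went in both directions. Of the 10 genes 4 were higher (40%), 3 lower (30%) and 3 not past. With so few genes these shares lie near the 25.9% higher and 21.5% lower over all tested genes. Bmp1, the protease that removes the carboxy-terminal propeptide of fibrillar procollagens, had 8.19, 8.62 and 8.23 in posterior, against 5.12, 5.05 and 5.01 in anterior, and was 9.78-fold higher (log2 3.29, SE 0.15, adjusted p = 2.18e-06). Its other probes were 3.19-fold and 3.18-fold higher, and the log2 difference was 2.21 with the mean of its probes. For the brightest Bmp1 probe the log2 difference was 2.22 in the authors' values. The genes of the enhancer proteins of that protease moved the opposite way. Pcolce2 had 5.52, 5.23 and 5.16 in posterior, against 8.57, 8.74 and 8.16 in anterior, and was 9.11-fold lower (adjusted p = 5.75e-06). Pcolce had 5.97, 6.93 and 6.23 in posterior, against 7.73, 7.70 and 7.51 in anterior, and was 2.41-fold lower (adjusted p = 0.00282). Crtap, a component of the prolyl 3-hydroxylation complex, was 1.77-fold lower, with means of 8.37 ± 0.09 in posterior and 9.20 ± 0.21 in anterior (SD, n = 3 each, limma adjusted p = 0.00251).

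**Figure D3:**
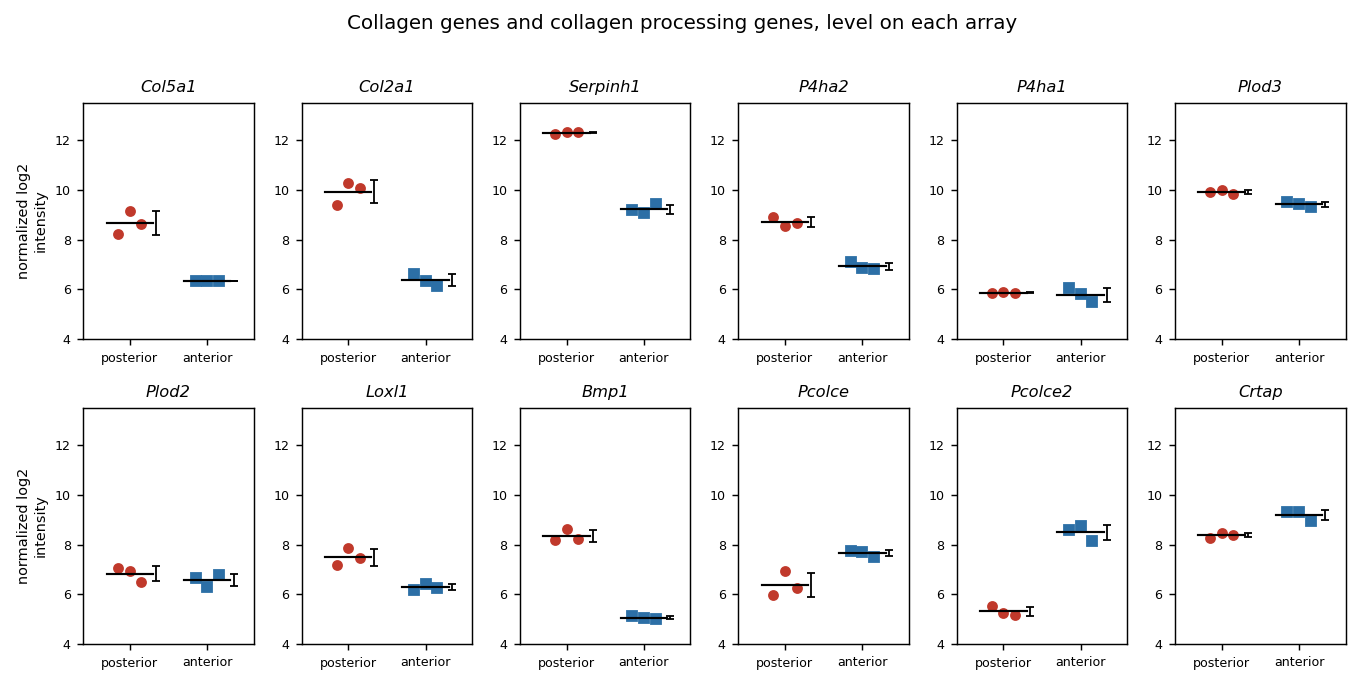
Level of collagen genes and of genes that modify, crosslink or trim collagen on every array (y axis, normalized log2 intensity; circles, 3 posterior arrays; squares, 3 anterior arrays; lines, group means; error bars, 1 SD). Serpinh1, P4ha2 and Bmp1 were high on all posterior arrays, Pcolce, Pcolce2 and Crtap were low on them, and P4ha1 and Plod2 overlapped between groups.

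Among 8 tested glycoprotein and proteoglycan genes, 5 rose, 1 fell and 2 missed the threshold, with a median difference of 1.02. The shares were 62.5% higher and 12.5% lower, against 25.9% and 21.5% of all tested genes. Ecm1, whose protein binds perlecan and other matrix proteins, had 8.66, 9.80 and 9.24 in posterior, against 5.44, 5.47 and 5.31 in anterior. All posterior arrays were far above the anterior ones, and Ecm1 was 14.2-fold higher (log2 3.83, SE 0.26, adjusted p = 1.28e-05). The log2 difference of Ecm1 was 2.41 with the mean of its probes and 2.88 in the authors' values. Bgn, which encodes the small leucine-rich proteoglycan biglycan, had 7.37, 7.20 and 7.39 in posterior, against 4.81, 4.83 and 4.99 in anterior, with detection on 2 of 3 arrays there, and was 5.44-fold higher (adjusted p = 4.56e-06). In the authors' values, which keep the background, the difference of Bgn was 1.43 against 2.44 here.

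Sparc, a collagen-binding glycoprotein abundant in basement membranes of the parietal endoderm, had 9.86, 10.54 and 10.09 in posterior, against 9.13, 9.13 and 8.67 in anterior. It was 2.27-fold higher (log2 1.19, SE 0.21, adjusted p = 0.00232). The fibulins, which bind basement membrane proteins and elastic fibres, were both higher. Fbln1 averaged 9.72 ± 0.13 in posterior and 8.97 ± 0.08 in anterior (SD, n = 3 each, limma adjusted p = 0.00247). The dimmest Fbln1 probe had overlapping groups and did not pass (log2 0.41, limma adjusted p = 0.173), and its other probes were called higher. Fbln2 averaged 5.85 ± 0.18 in posterior and 4.79 ± 0.21 in anterior (SD, n = 3 each, limma adjusted p = 0.00104), where 1 of 3 arrays detected it, and its log2 difference was 0.48 in the authors' values against 1.07 here.

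Fn1, which encodes fibronectin, the major cell-adhesive glycoprotein of mesenchymal matrix, was the only lower gene of this class. It had 7.86, 8.55 and 8.34 in posterior, against 9.95, 10.24 and 10.13 in anterior. The groups were well separated, and Fn1 was 3.62-fold lower (log2 -1.86, SE 0.19, adjusted p = 0.000133). All 4 of its probes were called lower, 2 of them detected on no posterior array.

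Tnc and Dcn stood out by their spread within posterior. Tnc, the adhesion-modulating glycoprotein tenascin C, had 4.81, 6.27 and 5.15 in posterior, against 4.44, 4.52 and 4.61 in anterior. Dcn, which encodes the fibril-binding proteoglycan decorin, had 4.85, 6.28 and 4.75 in posterior, against 4.31, 4.30 and 4.34 in anterior. For both genes posterior replicate 2 was well above the other posterior arrays, and no anterior array detected them. Neither passed on its brightest probe (adjusted p = 0.0577 for Tnc and 0.0576 for Dcn), and the second Tnc probe was called higher (log2 0.91, adjusted p = 0.0416). Both passed with median scaling (adjusted p = 0.0406 for Tnc and 0.042 for Dcn) and with array weights (0.033 and 0.0413). The smooth muscle markers Acta2 (8.75, 11.56 and 10.21 in posterior) and Tagln (5.58, 7.03 and 5.58 in posterior) were also highest on posterior replicate 2, as was Myl9 (8.24, 9.17 and 8.58 in posterior). Des, the other tested smooth muscle marker, was lowest on that array (6.82, 6.48 and 6.63 in posterior). The part of these markers in the spread of Tnc and Dcn was not tested.

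The Ecm1 window is given because this gene had the largest difference among the matrix proteins themselves. It is chr3:95739520-95739819, minus strand, in GRCm38.p6 from RefSeq, marked as above.
Ecm1: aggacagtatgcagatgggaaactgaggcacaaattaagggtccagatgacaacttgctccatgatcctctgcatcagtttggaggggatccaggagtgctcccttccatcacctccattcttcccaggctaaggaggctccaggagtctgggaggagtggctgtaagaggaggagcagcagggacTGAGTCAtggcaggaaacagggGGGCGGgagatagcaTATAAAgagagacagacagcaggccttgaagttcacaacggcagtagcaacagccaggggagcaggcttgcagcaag
It holds 1 GC box, 1 TATA box and 1 AP-1 match.

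Proteases and their inhibitors moved in both directions. Of 6 tested proteases 3 were higher, 2 lower and 1 not past. Of 4 tested genes in the inhibitor class Timp2, Timp3 and Serpinf1 were higher and Timp1 lower. Serpinf1 is a serpin, counted in that class by its family and not by inhibition of a protease. In both classes together 60% were higher and 30% lower, against 25.9% and 21.5% of all tested genes. Among the 6 of these 10 genes detected on all 6 arrays, 2 were higher and 3 lower, and the other 4 higher genes were undetected on at least 1 anterior array. Plat, the tissue plasminogen activator, had 8.99, 9.55 and 9.28 in posterior, against 5.0, 4.96 and 4.52 in anterior, where 2 of 3 arrays detected it. It was 21.8-fold higher (log2 4.45, SE 0.20, adjusted p = 1.72e-06), the largest difference of any member. The anterior levels of Plat lay near the lowest detected signals of those arrays, so this size is uncertain. Its log2 difference was 3.15 in the authors' values. Before any normalization its intensities were 687, 784 and 625 in posterior, against 76.5, 75.6 and 65.1 in anterior. Plau, the urokinase-type activator of the same proenzyme, had 6.65, 7.02 and 6.91 in posterior, against 4.36, 4.39 and 4.34 in anterior, where no array detected it, and was at least 4.08-fold higher (adjusted p = 5.6e-06). Both plasminogen activator genes were thus separated by group on every array. The difference of Plau was 2.50 here and 1.34 in the authors' values.

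The metalloprotease genes did not share a direction. Mmp2, a gelatinase that cleaves type IV collagen, had 8.84, 9.49 and 9.14 in posterior, against 6.96, 7.47 and 7.11 in anterior, and was 3.93-fold higher (log2 1.97, SE 0.20, adjusted p = 0.000125). Mmp14, the membrane-bound activator of the Mmp2 proenzyme, had 7.56, 8.18 and 7.85 in posterior, against 7.24, 7.68 and 7.41 in anterior, with overlap and a difference of 0.42 (SE 0.19, adjusted p = 0.113). It passed with array weights (log2 0.55, adjusted p = 0.0383). Mmp11, a stromelysin, had 6.45, 6.80 and 6.80 in posterior, against 7.20, 7.32 and 6.98 in anterior, and was 1.40-fold lower (adjusted p = 0.0388). Its call was lost with median scaling (log2 -0.19, adjusted p = 0.58), without any 1 posterior replicate (0.137, 0.0696 and 0.0613 without replicates 1, 2 and 3) and without anterior replicate 1 (0.104) or 2 (0.103). Htra1, a secreted serine protease, had 5.75, 5.83 and 5.92 in posterior, against 6.83, 6.42 and 6.58 in anterior, and was 1.72-fold lower (adjusted p = 0.00334). With median scaling Htra1 did not pass (log2 -0.47, adjusted p = 0.0882).

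The tissue inhibitors of metalloproteases split between members of the family. Timp2, which also takes part in the activation of the Mmp2 proenzyme by Mmp14, had 7.96, 8.33 and 8.18 in posterior, against 4.49, 5.06 and 5.19 in anterior, where 2 of 3 arrays detected it. Timp3, the matrix-bound inhibitor, had 5.87, 6.77 and 6.20 in posterior, against 4.50, 4.76 and 4.76 in anterior, where 1 of 3 arrays detected it. Timp1, the soluble inhibitor, had 7.49, 7.75 and 7.77 in posterior, against 8.79, 9.08 and 8.79 in anterior. Timp2 and Timp3 were thus above and Timp1 below the anterior levels on every posterior array. Timp2 was 9.46-fold higher (log2 3.24, SE 0.20, adjusted p = 9.23e-06), Timp3 3.05-fold higher (log2 1.61, SE 0.22, adjusted p = 0.000648) and Timp1 2.32-fold lower (log2 -1.22, SE 0.15, adjusted p = 0.000322). The difference of Timp2 was 2.10 in the authors' values, and that of Timp3 was 0.78 in the authors' values and 0.74 with the mean of its probes. Serpinf1, a serpin that inhibits angiogenesis and is needed for bone mineralisation, averaged 10.08 ± 0.39 in posterior and 6.43 ± 0.59 in anterior (SD, n = 3 each), with intensities before normalization of 1068, 1051 and 1372 in posterior, against 110, 104 and 160 in anterior. The groups were well separated. It was 12.6-fold higher (log2 3.65, SE 0.30, adjusted p = 3.65e-05), and 1.72 on the log2 scale with the mean of its probes.

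The windows of Timp2 and Timp1 are shown because these inhibitor genes moved in opposite directions. Timp2 is chr11:118355362-118355661, minus strand, and Timp1 is chrX:20869916-20870215, plus strand, both in GRCm38.p6 from RefSeq and marked as above.
Timp2: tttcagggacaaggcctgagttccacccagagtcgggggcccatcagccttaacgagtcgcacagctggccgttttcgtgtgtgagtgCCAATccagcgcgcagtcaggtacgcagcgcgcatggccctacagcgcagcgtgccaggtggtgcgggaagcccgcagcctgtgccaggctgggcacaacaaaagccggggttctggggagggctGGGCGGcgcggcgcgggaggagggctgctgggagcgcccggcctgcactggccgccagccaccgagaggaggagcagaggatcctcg
Timp1: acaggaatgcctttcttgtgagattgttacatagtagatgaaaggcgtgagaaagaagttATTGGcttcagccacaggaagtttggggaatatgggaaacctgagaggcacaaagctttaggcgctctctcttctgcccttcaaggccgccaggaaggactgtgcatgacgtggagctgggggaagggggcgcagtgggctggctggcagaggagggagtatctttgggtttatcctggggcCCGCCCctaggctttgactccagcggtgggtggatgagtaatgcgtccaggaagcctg
Each window holds 1 GC box and 1 CCAAT match, with 0 TATA box and 0 AP-1 matches in both.

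**Figure D4:**
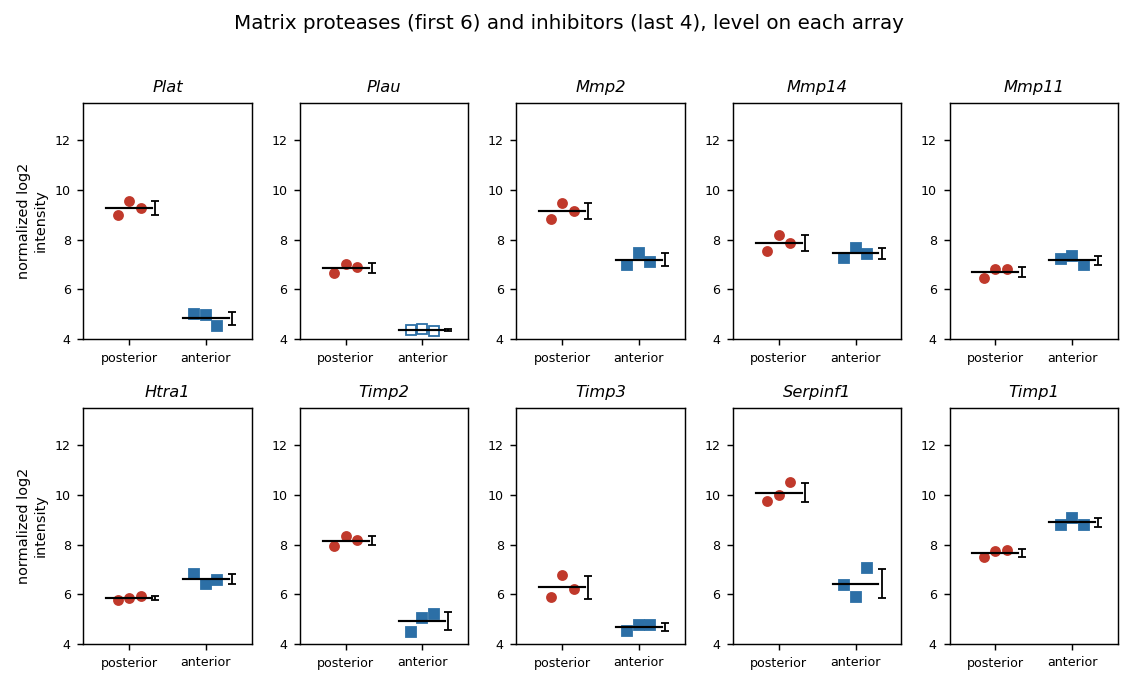
Level of matrix proteases and protease inhibitors on every array (y axis, normalized log2 intensity; circles, 3 posterior arrays; squares, 3 anterior arrays, open where no array of the group detected the gene; lines, group means; error bars, 1 SD). Plat, Plau, Mmp2, Timp2, Timp3 and Serpinf1 were higher and Mmp11, Htra1 and Timp1 lower on every posterior array, and Mmp14 overlapped. Serpinf1 is shown with the inhibitors by its family, the serpins.

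Set beside each other, the member classes had medians of 0.66 for 11 basement membrane genes and 1.79 for the 10 proteases and inhibitors. The median was 0.03 for all tested genes, and the single fibrillar collagen member, Col5a1, had 2.34. The fibrillar collagens Col2a1, Col11a1, Col11a2 and Col27a1, outside the members, had differences of 3.57, -0.25, -0.27 and 0.12. Of these only Col2a1 passed. Among genes detected on all 6 arrays the medians were 0.66 for 11 basement membrane genes and -0.03 for 6 proteases and inhibitors, against -0.03 for all such genes. Each member class held genes called in both directions except the collagens and collagen-modifying enzymes. Among these 0 of 10 tested members were called lower, against 21.5% of all tested genes. Col6a1 and Col6a2 among them entered the fit only through posterior, so this count supports nothing by itself. Outside the members, the collagen gene Col9a2 and the collagen processing genes Pcolce, Pcolce2 and Crtap were called lower. The differences between classes were not tested.

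Further matrix genes came from 6 lists of 137 symbols in all. Of 73 tested 31 were higher (42.5%), 9 lower (12.3%) and 33 not past, against 25.9% higher and 21.5% lower over all tested genes, with a median difference of 0.34, and among the 47 detected on all 6 arrays 18 were higher and 7 lower. Matrix receptor genes had 9 of 18 higher (50%) and 2 lower (11.1%). Cd44, among the higher ones, was undetected in anterior and entered the fit only through posterior. Of the 12 receptor genes detected on all 6 arrays 5 were higher (41.7%) and 2 lower (16.7%), against 22.0% and 23.1% of all such genes. The lower ones were the integrin gene Itga6 (1.49-fold, limma adjusted p = 0.0205) and Sdc4 (1.7-fold, limma adjusted p = 0.00553). Itga3, the alpha subunit of a laminin-binding integrin, had 10.36, 10.11 and 10.46 in posterior, against 7.32, 6.97 and 7.50 in anterior, and was 8.27-fold higher (log2 3.05, SE 0.18, adjusted p = 5.9e-06). Dag1, the laminin receptor dystroglycan, was 2.44-fold higher (adjusted p = 0.000989). The cell-surface proteoglycan genes Sdc2 and Sdc3 were 3.92-fold and 2.69-fold higher, detected on 1 and 2 of 3 anterior arrays.

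Of 6 other laminin and basement membrane genes 3 were higher (50%) and 1 lower (16.7%), against 25.9% and 21.5% of all tested genes. Col4a5 and Npnt, 2 of the higher genes, were undetected in anterior and entered the fit only through posterior. Of the 2 genes detected on all 6 arrays 0 were higher and 0 lower, so the count gives no direction for this list. Tinagl1, a secreted laminin-binding protein, was 4.78-fold higher and was detected on 1 of 3 anterior arrays. Col4a5, a further type IV collagen chain, had 5.02, 5.70 and 6.15 in posterior, against 4.22, 4.26 and 4.23 in anterior, where no array detected it, and was at least 1.73-fold higher (adjusted p = 0.0027). Npnt, the integrin ligand nephronectin, was at least 1.10-fold higher (adjusted p = 0.0313), and Lamb3, a chain of epithelial laminin, was 1.53-fold lower (adjusted p = 0.0108). Lamb3 lost its call without posterior replicate 2 (adjusted p = 0.055) and with median scaling (0.107). Npnt lost its call without any 1 anterior replicate (0.0584, 0.0581 and 0.0642 without replicates 1, 2 and 3), without background correction (0.0633), in the authors' values (log2 0.14, adjusted p = 0.255), with an offset of 50 (0.0933) and with median scaling (0.0768).

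Of 9 other collagen genes 33.3% (3) passed as higher, 11.1% (1) as lower and 5 missed the threshold, with a median difference of -0.25. With so few genes these shares lie near the 25.9% higher and 21.5% lower over all tested genes. Col2a1, the main cartilage collagen, had 9.40, 10.28 and 10.09 in posterior, against 6.60, 6.35 and 6.12 in anterior, and was 11.9-fold higher (adjusted p = 1.27e-05). Col7a1, the anchoring fibril collagen, was 3.02-fold higher, and Col16a1, undetected in anterior, at least 2.71-fold higher. Col9a2, a cartilage collagen chain, was 1.83-fold lower (adjusted p = 0.00143), the other way from Col2a1, and did not pass with median scaling (adjusted p = 0.0669).

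Of 14 genes of elastic fibres, matricellular proteins and latent TGF-beta complexes 7 were higher (50%) and 1 lower (7.14%), against 25.9% and 21.5% of all tested genes. Of the 14 genes 3 were undetected in anterior and entered the fit only through posterior. Among the 7 detected on all 6 arrays 2 were higher (28.6%) and 1 lower (14.3%). With so few genes these shares lie near the 22.0% and 23.1% of all such genes. The microfibril gene Mfap2 was at least 5.85-fold higher, Emilin2 at least 2.80-fold and Ltbp1 at least 3.97-fold, all 3 undetected in anterior. These bounds rest on the brightest probe, and the other Mfap2 probes gave at least 1.5-fold and at least 2.06-fold. Ltbp4, a latent TGF-beta binding protein of elastic fibres, had 8.15, 8.55 and 8.53 in posterior, against 10.10, 10.03 and 9.83 in anterior, and was 2.98-fold lower (log2 -1.57, SE 0.16, adjusted p = 0.000113). The family members Ltbp1 and Ltbp4 therefore lay on opposite sides, each with separated groups.

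Of 16 other protease and inhibitor genes 5 were higher (31.2%) and 1 lower (6.25%), the share of higher genes lying near the 25.9% over all tested genes. Mmp23 was 2.47-fold higher (adjusted p = 0.00225), and Reck, a membrane-anchored inhibitor of metalloproteases, had 7.43, 7.52 and 7.41 in posterior, against 6.41, 6.45 and 6.67 in anterior, 1.92-fold higher (adjusted p = 0.000712). Ctsb, the lysosomal protease cathepsin B, was 1.66-fold higher (adjusted p = 0.017) and lost its call without posterior replicate 2 (0.0655) or anterior replicate 1 (0.0683) and with median scaling (0.0584). Spint2, an inhibitor of serine proteases, was 1.71-fold lower (adjusted p = 0.017), was detected on 1 of 3 posterior arrays, and lost its call without posterior replicate 1 (0.0577) or 2 (0.0684) or anterior replicate 1 (0.0521) and with median scaling (0.0741).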

How the data were processed

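Total RNA of 6 samples was hybridised as biotinylated cRNA, per the labels' protocols. The deposited intensities of 45281 probes were neither background subtracted nor normalized, judged from their values, each with its own detection p-value, per the file headers. The authors' deposited log2 values cover 18312 probes and equal quantile-normalized log2 intensities of those probes to within 5e-09; limma, with no version, is named in the submitters' processing notes, and the scanner software could not be read from the labels or headers.

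The neqc function (offset 16, limma 3.58.1, R 4.3.3) was applied to the intensities. Its offset shrinks differences of dim probes, but its background correction enlarges them relative to values that keep the background. The log2 difference of Plau, for example, was 2.50 here and 1.34 in the authors' values. The 18242 probes with detection p under 0.05 on at least 3 of 6 arrays were fitted with lmFit and eBayes and adjusted by Benjamini-Hochberg, without a replicate block. Depth has no counterpart on arrays, whose number limits precision. The platform annotation gave 1 symbol for 15550 probes, and 14884 of the tested probes carried one. The brightest tested probe stands for a gene. A gene undetected in a group has only a bound, from its brighter mean against, per array, the higher of its level and the lowest detected signal (4.70 to 4.91).

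All 56 members are accounted for. Of each list of other matrix genes, up to 4 called genes with the largest differences are named. The further genes Itga6, Sdc4, Cd44, Col11a1, Col11a2 and Col27a1 and the named markers were picked after their values were seen. Members and lists were chosen with earlier results of these data known. No list was tested. Alternatives covered background correction, offset, normalization, detection filter, variance model, array weights, replicate block, probe choice and leaving out each array. The steps were tested on simulated data. Figures used matplotlib 3.10.9 in Python 3.11.15.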

Additional observations from a re-analysis of the deposited data

How the results depend on the processing

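Among the 17 alternatives, the number of higher members stayed at 16 to 26 (24 here), and that of lower members at 5 to 7 (6 here) except with arrays scaled to a common median, where 3 were lower (Nid1, Mmp11 and Htra1 lost their call) while 24 were higher. That scaling moved the median difference of all genes to 0.20, against 0.03, and 72.1% of all called genes were then higher, against 54.7%. With 1 array left out, 19 to 23 members were higher and 5 to 6 lower, and 3192 to 4527 of all tested genes were called, against 4699. With the replicate block 26 members were higher and 6 lower, Mmp14, Tnc and Dcn passing and Col6a2 not. Deviations of same-numbered samples correlated at 0.289, 0.162 and -0.077, and posterior replicate 3 correlated best with anterior replicate 2, so the numbers were not taken to pair the samples. Of 635 combinations of a member and an alternative, 597 kept direction and side of the threshold, 23 lost the call, 11 gained one and 4 reversed. Of the 30 called members 24 kept their call in every alternative that tested them; the exceptions were Nid1, Hspg2, Col6a2, Plod3, Mmp11 and Htra1. The sign reversed for Lama1 without posterior replicate 2 (-0.06) and without anterior replicate 1 (-0.02; -0.06 to 0.26 with 1 array left out), and for P4ha1 with array weights (-0.02) and without anterior replicate 3 (-0.06 to 0.23 with 1 array left out); neither gene was called in any of these. For 34 of the other named genes 512 of 529 combinations kept direction and side, 17 lost the call and 0 reversed. Where alternatives differ the cause was not tested, except that a stricter detection filter or 1 posterior array fewer leaves fewer genes tested. Dim probes have the least certain sizes: without background correction the log2 difference of Plau was 1.41 against 2.50.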

Other observations

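Probes of 1 gene did not always give 1 answer. Of 18 members with several tested probes, all probes gave the same call in 10 and differed between called and not called in 8, and in 0 were they called in opposite directions. The 4 probes of Fn1 had log2 differences of -1.86, -1.42, -1.40 and -0.45. The second probe of Lamc1 was called lower (log2 -0.76, limma adjusted p = 0.0137) although the brighter one was not. The second probe of P4ha1, detected on no anterior array, was called higher (log2 0.68, limma adjusted p = 0.00935), with levels of 5.23, 5.11 and 4.75 in posterior, against 4.48, 4.25 and 4.31 in anterior. The second probe of Serpinf1 had a difference of -0.22 (limma adjusted p = 0.233) and that of Timp3 -0.12 (limma adjusted p = 0.651), both near the detection limit. The untested probe of Adamts1 had levels of 4.52, 4.89 and 5.29 in posterior, against 4.40, 4.36 and 4.62 in anterior.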
